A study of Sus scrofa with 3 samples.

Results

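The 5 genes described here sense or carry out inflammatory cell injury, and their transcripts were measured in minipig lung. They are the Toll-like receptor genes TLR2 and TLR4, the pore-forming gasdermin gene GSDMD, the thioredoxin inhibitor gene TXNIP and the initiator caspase gene CASP8. They were taken as the 5 genes of these symbols among 6765 singly named genes on an Affymetrix porcine expression array, and they were read by 9 probe sets. They were selected on their log2 signals on these same arrays, so their values are a description with no test. The operated lung was a left lung after ischemia-reperfusion, made by transient closure of the left pulmonary artery with the bronchus left alone, so that ventilation went on. The non-operated lung was a right lung after that same procedure on the left, and the sham lung was from a minipig with a sham operation. The animals were kept in specific pathogen-free conditions. Each group is 1 array of whole-lung RNA, and the labels do not state whether the operated and non-operated lungs shared an animal, how long occlusion and reperfusion lasted, or the ages of the animals.

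Toll-like receptors are membrane proteins of myeloid, endothelial and epithelial cells that bind microbial products and molecules released by damaged cells. Through adaptors such as MYD88 they switch on NF-kB and the transcription of cytokines, chemokines and adhesion molecules. Pyroptosis is a lytic cell death in which an inflammatory caspase cuts gasdermin D, whose freed end opens pores in the plasma membrane through which the cytokines IL-1 beta and IL-18 leave. TXNIP binds thioredoxin and has been described as a partner of the NLRP3 inflammasome under oxidative stress. Caspase-8 starts apoptosis below death receptors, holds back necroptosis and, in mouse macrophages, can also cut gasdermin D.

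The deposited signals are on the log2 scale, and a floor was set at each array's own median signal, 7.31 in the operated lung, 7.31 in the non-operated lung and 7.33 in the sham lung. Values under it were set to it, so that a fold with 1 side under the floor is written as at least that fold. Of the 9 probe sets, 7 lay above the floor on all 3 arrays. Of the TLR4 sets, 1 lay above it in the operated and non-operated lungs only, and 1 lay above it on 0 arrays. As a check of the tissue, the surfactant gene SFTPC had a log2 signal of 14.52 in the operated, 14.56 in the non-operated and 14.44 in the sham lung. AGER, a defining gene of alveolar type 1 cells, was at 8.13 in the operated and 8.27 in the non-operated lung but under the floor in sham, at 5.01. The other alveolar type 1 markers named on the array, CAV1, PDPN, CAV2, HOPX and AQP5, were above the floor in sham. Their sham signals ran from 7.43 for AQP5 to 12.81 for CAV1. All counted genes together had a median log2 ratio of -0.11 for the operated and -0.10 for the non-operated lung against sham.

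**Figure D1:**
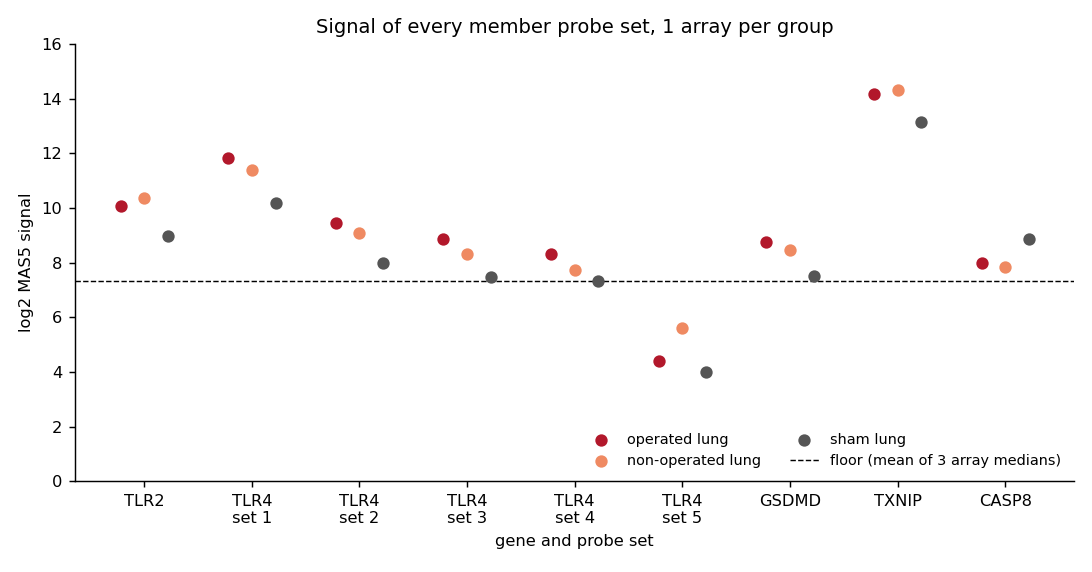
Log2 MAS5 signal (vertical axis) of each of the 9 member probe sets (horizontal axis) in the operated, non-operated and sham lung, 1 point per array, with the dashed line at the mean of the 3 floors. TLR2, TLR4 sets 1 to 4, GSDMD and TXNIP have their lowest point in sham, CASP8 has its highest point in sham, and TLR4 set 5 lies under the line on each array.

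Against sham, 4 of the 5 genes had signals higher by 2-fold or more in the operated lung (TLR2, TLR4, GSDMD and TXNIP), and 0 were lower by as much. Over all 5097 genes counted in that comparison, 8.65% were higher by 2-fold or more and 8.79% lower. In the non-operated lung 3 of the 5 were past 2-fold on the higher side (TLR2, TLR4 and TXNIP) and 1 on the lower side (CASP8), where 8.96% and 8.55% of 5113 genes were. Both counts set a lung against the same single sham array, so a departure of that array from other sham lungs would enter both. The differences were close to the threshold for several genes. TXNIP in the operated lung, at a log2 ratio of 1.05, and CASP8 in the non-operated lung, at -1.02, lay just past 2-fold, while GSDMD in the non-operated lung, at 0.98, and CASP8 in the operated lung, at -0.87, lay just short of it.

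TLR2 pairs with TLR1 or TLR6 to recognise bacterial lipopeptides. Its 1 probe set had a log2 signal of 10.07 in the operated lung and 10.37 in the non-operated lung, against 8.97 in sham. On the linear scale these are signals of 1075, 1322 and 503 in the same order of lungs. The sham array was the low one, and the operated lung stood 2.14-fold and the non-operated lung 2.63-fold above it. The operated lung was lower than the non-operated lung, at a log2 ratio of -0.30. A lower ratio between those lungs was found for 12.4% of 4944 genes.

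TLR4 is the receptor for bacterial lipopolysaccharide and works in a complex with MD-2, the product of LY96. The brightest of its 5 probe sets, which stands for the gene in the counts, had a log2 signal of 11.83 in the operated lung and 11.38 in the non-operated lung, against 10.18 in sham, or 3635, 2666 and 1158 on the linear scale. The order of the arrays was operated, non-operated, sham, with the operated lung 3.14-fold and the non-operated lung 2.30-fold above sham. The next set had log2 signals of 9.45 in the operated and 9.08 in the non-operated lung, against 7.995 in sham. Set 3 had 8.85 and 8.32, against 7.47 in sham. TLR4 set 4 had 8.31 and 7.71, against a sham signal of 7.32, which lay just under the sham floor of 7.33. All 4 sets put the arrays in the same order. Sets 3 and 4 are of a type whose probes can match more than one transcript.

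Over those 4 TLR4 sets the log2 ratio of the operated lung to sham ran from 0.98 to 1.65, with a median of 1.42. For the non-operated lung it ran from 0.39 to 1.20, with a median of 0.97, so the 2-fold call there depends on the set. The log2 ratio of the operated to the non-operated lung was positive in all 4, from 0.37 to 0.59, a spread of 0.22. Among 820 genes with several sets above the floor in that comparison, the median spread between the sets of a gene was 0.20. Against sham the TLR4 spread was 0.67 in the operated and 0.82 in the non-operated lung, beside a median of 0.35 in either comparison. Those TLR4 spreads take in set 4, whose sham signal lay under the floor. The medians took only sets above the floor on both arrays, so the TLR4 spreads cannot be set against them. Over sets 1 to 3 the log2 ratio to sham ran from 1.38 to 1.65 in the operated lung. In the non-operated lung it ran from 0.85 to 1.20. The number of sets per gene was not matched to the 4 of TLR4. The TLR4 sets read the same RNA, so their likeness says nothing of the variation between animals. Set 5 had log2 signals of 4.38, 5.60 and 3.998 in the operated, non-operated and sham lung, all under the floor, and no ratio was taken from it.

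GSDMD encodes gasdermin D, the protein that forms the pore of pyroptosis. Its 1 probe set had a log2 signal of 8.74 in the operated lung and 8.48 in the non-operated lung, against 7.502 in sham, and on the linear scale these are signals of 427, 357 and 181. The sham signal was only slightly above its floor of 160.7. The gene was 2.36-fold higher in the operated and 1.97-fold higher in the non-operated lung than in sham. The array measures the transcript and not the cut form of the protein.

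TXNIP is induced by glucose, and its protein restrains both thioredoxin and glucose uptake. Its 1 probe set had a log2 signal of 14.17 in the operated lung and 14.33 in the non-operated lung, against 13.13 in sham, or 18492, 20661 and 8958 on the linear scale. The highest log2 signals of any probe set were 14.79, 14.92 and 14.83, so the set worked near the top of each array's range. The operated lung was 2.06-fold and the non-operated lung 2.31-fold above sham. The log2 ratio of the operated to the non-operated lung was -0.16.

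CASP8 was the member on the other side. Its 1 probe set had a log2 signal of 7.98 in the operated lung and 7.84 in the non-operated lung, against 8.86 in sham, or 253, 228 and 463 on the linear scale. Sham was the high array, and the operated lung was 1.83-fold and the non-operated lung 2.03-fold lower. Both of the lower signals lay near their floor of 7.31.

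**Figure D2:**
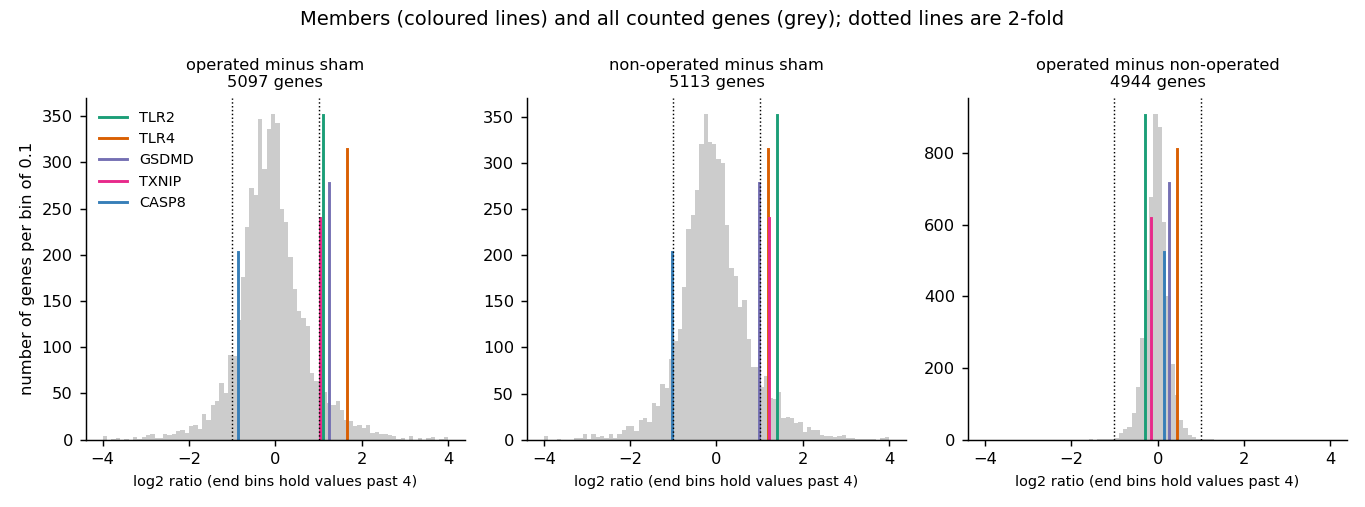
Number of genes (vertical axis) by log2 ratio (horizontal axis) for the operated lung against sham, the non-operated lung against sham, and the operated against the non-operated lung, with the 5 members as coloured lines and dotted lines at 2-fold. TLR4 is the farthest right of the members in the first panel at 1.65, TLR2 in the second at 1.39, and in the third all 5 lie between -0.30 and 0.45.

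The operated and non-operated lungs were close to each other. Of the 5 members, 0 were past 2-fold on either side between them, where 0.0607% of 4944 genes were on the higher and 0.182% on the lower side. The log2 ratios of the operated to the non-operated lung were 0.45 for TLR4, 0.26 for GSDMD, 0.15 for CASP8, -0.16 for TXNIP and -0.30 for TLR2. The median absolute log2 ratio of all genes was 0.15. The 2 receptors therefore lay on opposite sides, TLR4 higher and TLR2 lower in the operated lung, and 3.40% of genes had a higher ratio than TLR4. With 1 array a side there is no spread between animals against which to judge either difference.

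Among the other Toll-like receptors, TLR6 was the one gene above the floor on any array. TLR6, a partner of TLR2, had log2 signals of 3.70 in the operated and 7.31 in the non-operated lung, both under the floor, against 8.61 in sham. It was at least 2.46-fold lower in the operated and at least 2.47-fold lower in the non-operated lung, opposite in direction to TLR2. TLR1, TLR8 and TLR9 were at or under the floor on each array, and TLR3, TLR5, TLR7 and TLR10 had no probe set with that single gene name.

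Of 24 listed co-receptors and adaptors, 13 were named on the array and 5 lay above the floor. By the brightest set, 0 of the 5 were past 2-fold in either lung, a count too small to set against the shares of all genes. Those shares were 8.65% higher and 8.79% lower in the operated lung, and 8.96% and 8.55% in the non-operated lung. A dimmer set of MAP3K7, a kinase between the receptors and NF-kB, was past 2-fold, at log2 ratios of -1.16 and -1.41. Its brighter set was at -0.92 and -0.75. LY96 had log2 signals of 11.33 in the operated and 10.97 in the non-operated lung, against 10.90 in sham. Its log2 ratio to sham was 0.43 in the operated and 0.07 in the non-operated lung, and the operated lung was above the non-operated lung by 0.36, on the same side as TLR4. CD14, the co-receptor that hands lipopolysaccharide to TLR4 and MD-2, had both probe sets under the floor on each array, and so had MYD88. TOLLIP, a negative regulator of the pathway, was at a log2 ratio of 0.97 in both lungs, a gene named after its values were seen.

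Of the NF-kB and interferon regulatory factor list, 6 of 18 genes lay above the floor. IRF7, a transcription factor of interferon genes, was at least 2.40-fold higher in the operated lung, and at least 1.96-fold higher in the non-operated lung, from a sham signal under the floor. NFKBIA, the NF-kB inhibitor that NF-kB itself induces, was at log2 ratios of 0.75 and 0.72 in the operated and non-operated lung, also named after its values were seen. The median of the list was -0.11 in the operated and 0.15 in the non-operated lung, and its sign in the operated lung changed with the floor or probe set chosen.

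Genes that Toll-like receptor signalling induces lay on both sides of sham. In the operated lung, 4 of 12 counted genes were past 2-fold on the higher and 2 on the lower side, where 8.65% and 8.79% of all genes were. In the non-operated lung they were 4 and 2 of 13, where 8.96% and 8.55% of all genes were. The list medians were -0.15 in the operated and 0.23 in the non-operated lung. PTGS2, the inducible cyclooxygenase, had log2 signals of 9.92 in the operated and 10.21 in the non-operated lung, against 7.15 in sham, under the floor. It was at least 6.01-fold higher in the operated and at least 7.40-fold higher in the non-operated lung. CCL4, a chemokine for monocytes and T cells, was 4.04-fold and 3.998-fold higher. ICAM1, the adhesion molecule that holds neutrophils on endothelium, was 2.68-fold and 2.78-fold higher. CCL3L1, listed here under the platform's name for a CCL3 gene, was at least 2.01-fold and at least 2.64-fold higher. On the other side, the monocyte chemokine CCL2 had log2 signals of 9.96 in the operated and 10.23 in the non-operated lung, against 11.95 in sham, and was 3.95-fold and 3.30-fold lower. IL10, an anti-inflammatory cytokine, was at least 2.26-fold lower in either lung.

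Of 21 inflammasome and pyroptosis genes, 5 were named on the array, and all 5 lay above the floor. IL18, the cytokine that caspase-1 matures and gasdermin D pores release, had log2 signals of 9.53 in the operated and 9.37 in the non-operated lung, against 11.45 in sham. It was 3.80-fold and 4.23-fold lower, opposite in direction to GSDMD. CASP1, the inflammasome caspase, had log2 signals of 9.87 in the operated and 9.85 in the non-operated lung, against 9.86 in sham, the nearest to equal of the 5. The brighter IL1B set was at log2 ratios of -0.27 and -0.15, and its other set, at log2 signals of 7.46 in the operated and 7.09 in the non-operated lung, against 6.13 in sham, was above the floor in the operated lung alone. NLRP3 and PYCARD, the sensor and adaptor of the inflammasome, had no probe set with that single gene name, so the steps between TXNIP and CASP1 could not be followed here.

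In the thioredoxin list, 9 of 17 genes lay above the floor, and the gene nearest to TXNIP in direction and size was TXNRD1, the reductase that recharges thioredoxin. TXNRD1 had log2 signals of 11.93 in the operated and 11.56 in the non-operated lung, against 10.56 in sham. It was 2.58-fold higher in the operated and 2.01-fold higher in the non-operated lung, and its 3 sets gave log2 ratios from 0.936 to 1.4997 in the operated lung. PRDX3, a mitochondrial peroxidase, was on the other side at log2 ratios of -0.91 and -1.04. TXN, the thioredoxin that TXNIP binds, was at 0.25 and 0.42, a gene named after its values were seen.

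In the death receptor and caspase list, 9 of 12 counted genes, CASP8 among them, lay below sham in the operated lung and 10 of 12 in the non-operated lung. The list medians were -0.56 and -0.47 with CASP8, and -0.54 and -0.39 without it. The medians of all genes were also below sham, at -0.11 and -0.10, and the share of all genes below sham was not counted. Past 2-fold were 1 higher and 1 lower gene in the operated lung, against 0 higher and 2 lower genes, CASP8 among them, in the non-operated lung. Over all genes the shares were 8.65% higher and 8.79% lower in the operated lung, and 8.96% and 8.55% in the non-operated lung. TNFRSF1A, a receptor for tumour necrosis factor, was 2.07-fold and 1.98-fold higher. CASP2 was 2.62-fold and 2.06-fold lower by its brighter set, but its other set was at log2 ratios of 0.15 and -0.02. FADD, the adaptor that brings caspase-8 to death receptors, was at -0.29 and -0.31. CFLAR, the caspase-8-like inhibitor, was at 0.23 and -0.03 by its brighter set and at 0.55 and 0.93 by the other.

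Counted once each and without the 5 members, 7 of 46 pathway genes (15.2%) lay past 2-fold on the higher and 5 (10.9%) on the lower side in the operated lung. In the non-operated lung 5 of 47 (10.6%) were higher and 6 (12.8%) lower. Over all genes the shares were 8.65% and 8.79% in the operated and 8.96% and 8.55% in the non-operated lung. Their median log2 ratios were -0.18 and -0.035, beside -0.11 and -0.10 for all genes. In the operated against the non-operated lung, 0 of 44 were past 2-fold in either direction.

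**Figure D3:**
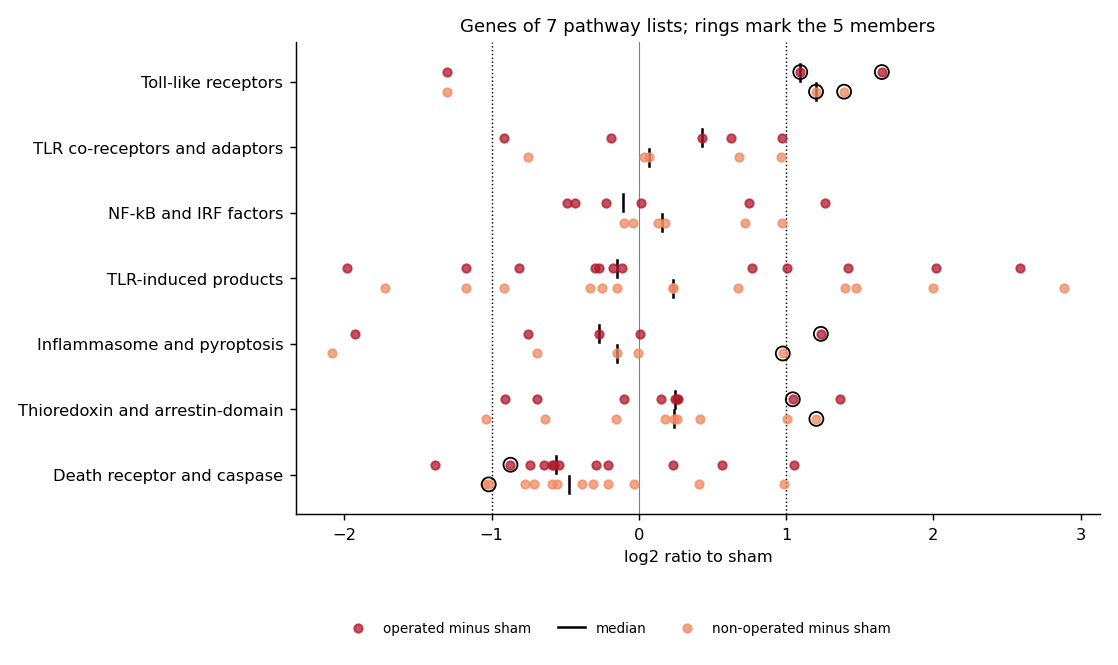
Log2 ratio to sham (horizontal axis) of each counted gene of the 7 pathway lists (rows), for the operated lung in dark red and the non-operated lung in orange, with black bars at list medians, rings on the 5 members and dotted lines at 2-fold. Each list has genes on both sides of 0 in either lung, and the genes induced by Toll-like receptors run from CCL2 on the left to PTGS2 on the right.

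Markers of several cell types differed between the lungs together with these genes, and in whole-lung RNA a change in the number of cells of a type and a change in RNA per cell cannot be told apart. Toll-like receptor 2 and 4 transcripts are abundant in macrophages, monocytes and neutrophils. Of 10 macrophage and monocyte markers on the array, 7 were counted in the operated lung, all 7 above sham. At least 2-fold higher were 5 of them, where 8.65% of all genes were. By the brightest set, single markers of the operated lung spanned 1.06-fold for FCGR3A to 5.90-fold for VSIG4. The VSIG4 sets above the floor differed in size, with log2 ratios from 0.26 to 2.56 in the operated lung. With MARCO set aside, at the edge of the floor, FCGR3A was again lowest in the non-operated lung, at 1.13-fold. MRC1 was highest there, at 5.44-fold. Whether TLR2 and TLR4 followed these markers was not tested, and ranges this wide could not decide it. Sums below are of linear signals as measured, with no floor applied, and they weight the brightest markers most. The summed signal of the macrophage and monocyte list was 29248 in the operated and 29479 in the non-operated lung, against 11351 in sham, a ratio of 2.58 and 2.60, with CD14 and SIGLEC1 under the floor on each array. The summed signal of 7 neutrophil markers was 7437 in the operated and 9030 in the non-operated lung, against 2254 in sham, with ELANE, LTF and MMP9 under the floor. Most of that sum was S100A9, at 5335 and 6517, against 598 in sham, while NCF1, also of that list, was 1.98-fold and 1.89-fold lower. For 12 endothelial markers it was 27146 and 30006, against 9203 in sham, with KDR, FLT1, ENG and EDNRB under the floor. For 6 alveolar type 1 markers it was 34755 and 34379, against 12484 in sham. For 5 platelet and red cell markers it was 4039 and 4214, against 1168 in sham, with ITGA2B and GP9 under the floor on each array and PPBP and ALAS2 under it in sham.

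The sums of lymphoid and cell division markers lay on the side of CASP8. The summed signal of 8 T and NK cell markers was 2466 in the operated and 2705 in the non-operated lung, against 5110 in sham, with CD4 under the floor. GNLY, a cytotoxic granule gene of that list, went the other way, at least 2.09-fold and at least 3.02-fold higher. For 6 B and plasma cell markers it was 15130 and 14934, against 28024 in sham, and for 6 markers of dividing cells it was 3449 and 4019, against 19438 in sham. The sum of 5 alveolar type 2 markers was 46606 and 43816, against 35609 in sham. That of 9 fibroblast and smooth muscle markers was 25100 and 30535, against 21935 in sham, with members on both sides. The smooth muscle genes TAGLN, at 3.19-fold and 3.28-fold, CNN1, at least 3.23-fold and 2.66-fold, and DES, at least 3.10-fold and 3.55-fold, were higher, and the matrix gene LUM was 2.36-fold and 1.69-fold lower. For 3 airway epithelial markers the sum was 4117 and 3207, against 2349 in sham, with BPIFA1 under the floor. The part of these shifts in the values of the 5 members was not tested.

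**Figure D4:**
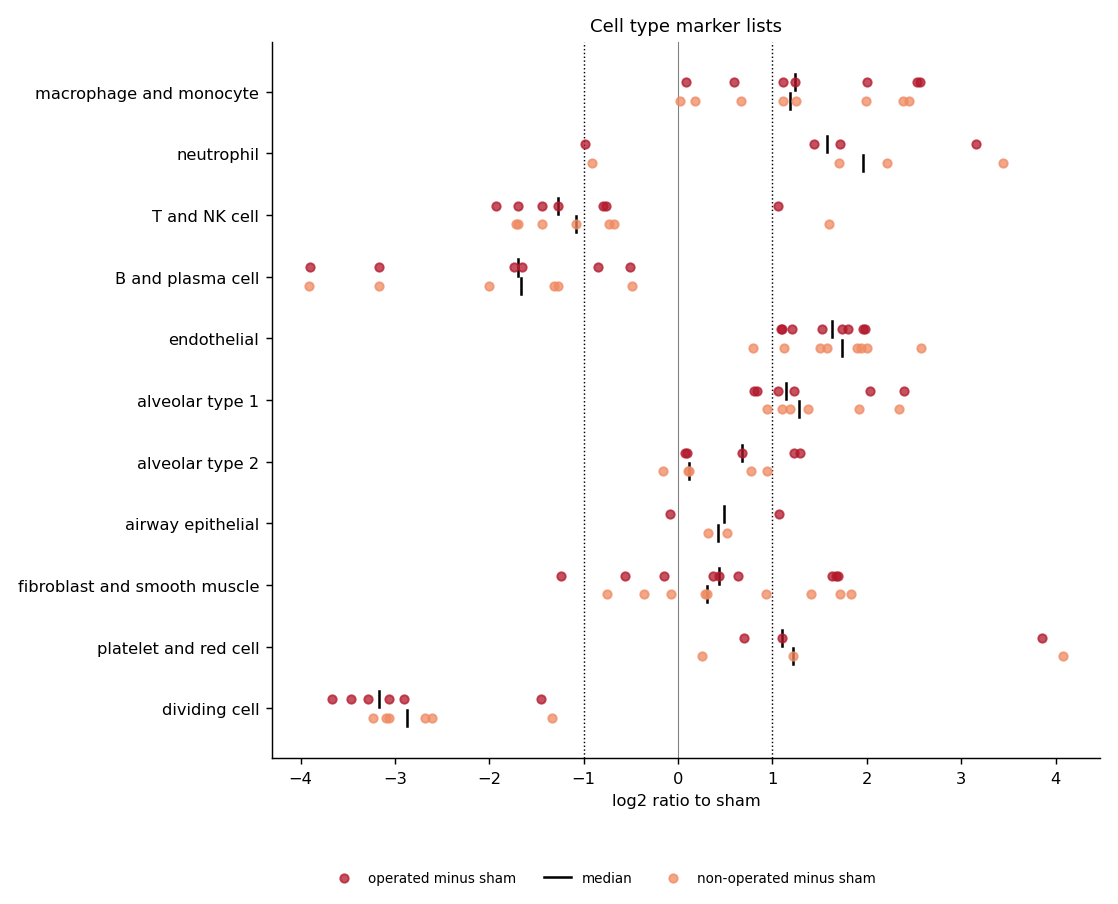
Log2 ratio to sham (horizontal axis) of each counted gene of 11 cell type marker lists (rows), for the operated lung in dark red and the non-operated lung in orange, with black bars at list medians and dotted lines at 2-fold. Macrophage, endothelial and alveolar type 1 markers lie to the right of 0 in either lung, and B cell and dividing cell markers lie to the left.

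The genes with the most similar pattern over the 3 arrays were found among 4386 genes above the floor on each array, by the Euclidean distance between log2 signals centred on each gene's own mean. For TLR2 they were PIK3IP1, the calcium-binding protein gene S100A4 and the water channel gene AQP5, at distances from 0.011 to 0.0275. For TLR4 they were the chemokine receptor gene CCR1, EPDR1 and the actin-severing protein gene SCIN, from 0.022 to 0.048. CCR1 had log2 signals of 10.54 in the operated and 10.11 in the non-operated lung, against 8.87 in sham. For GSDMD they were the cell cycle inhibitor gene CDKN1B, ZNF219 and the amino acid transporter gene SLC7A7, from 0.055 to 0.060. For TXNIP they were KCTD9, the lysosomal protease gene CTSD and the clock repressor gene CRY2, from 0.030 to 0.036. For CASP8 they were the chaperonin gene CCT7, the respiratory chain gene NDUFC1 and the replication gene DBF4, from 0.013 to 0.017. The likeness rests on 3 arrays, 1 a group.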

How the data were processed

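RNA of 3 minipig lung samples was extracted with TRIZOL and turned into biotin-labelled cRNA with a 3' in vitro transcription kit, per the labels' protocols. The authors deposited 1 log2 value per probe set and array, made with MAS5 per the submitters' processing notes. The sources used here do not give its version, scaling target or detection calls, or say whether RNA was pooled. Trimmed mean linear signals (2% from each end) were 495.9 in the operated, 495.7 in the non-operated and 495.1 in the sham lung, so no further scaling was applied.

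Of 23999 probe sets, 64 reporter controls were left out. Of the other 23935, the platform's annotation named 1 gene for 10069, several for 198 and none for 13668. By gene identifier, 9961 singly named sets matched RefSeq's pig table (assembly Sscrofa11.1). The sources used here name no build for the probes, so no coordinates are printed.

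A gene's probe set with the highest mean log2 signal stood for it. A gene was counted when it lay above the floor, the array's median, on at least 1 of the 2 arrays. Ratios are differences of log2 signal, and 2-fold is 1 on that scale. A group is 1 array, so no test was made, and the small number of arrays sets the precision. The 5 members, the 7 pathway lists and the 11 marker lists were chosen with earlier results of these data known. The genes named are the members, fixed partner genes, up to 6 genes per list and lung past 2-fold, and the 3 nearest patterns per member. A few others, among them TOLLIP, NFKBIA, TXN, MAP3K7 and the single cell type markers, were named after their values were seen. Other scalings, floors, probe set choices, a pseudocount of 16 and a 1.5-fold threshold were tried. The steps were tested on simulated data, with Python 3.11.15, numpy 2.4.6 and pandas 2.3.3.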

Additional observations from a re-analysis of the deposited data

Results flagged for a closer look

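CASP1 had log2 ratios to sham of opposite sign, 0.011 in the operated and -0.0042 in the non-operated lung, both close to 0. Its log2 ratio between those lungs was 0.015, beside a median absolute ratio of 0.15 over all genes. CFLAR also had opposite signs by its brighter probe set, at 0.23 and -0.035, while its other set was above sham in both lungs. Neither difference between the lungs was tested. One probe set named for both CASP10 and CFLAR, which entered no comparison because it names 2 genes, was at log2 ratios of 0.71 in the operated and 0.80 in the non-operated lung against sham.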

How the results depend on the processing

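Of 114 values of the 5 members under 8 other settings of scaling, floor, pseudocount or probe set, 114 had the sign of the reported value. Many of these could not differ from it. TLR2, GSDMD, TXNIP and CASP8 have 1 probe set each, so the other probe set choices return the reported value. Those sets lay above the floor on each array, so removing the floor also left their values unchanged. The count of signs is therefore a weak check. With a floor at the 75th percentile TLR2 in the operated lung was at 0.82, and GSDMD and CASP8 gave no value, being under that floor. By its lowest counted probe set TLR4 was at 0.98 in the operated and 0.39 in the non-operated lung. In the non-operated lung, quantile normalization gave 1.001 for GSDMD, now past 2-fold, and -0.99 for CASP8, and the pseudocount gave -0.97 for CASP8. The cause was not tested.

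Genes past 2-fold, 889 for the operated and 895 for the non-operated lung against sham and 12 between the lungs, were 1621, 1662 and 550 with no floor, 427, 439 and 5 with a floor at the 75th percentile, and 1960, 1989 and 169 at 1.5-fold. Between the lungs they were also 110 with a floor at the 25th percentile and 265 with the pseudocount. The other pathway genes past 2-fold higher in the operated lung were 4 at the 75th percentile, and those lower were 9 with no floor and 2 at the 75th percentile. In the non-operated lung those higher were 11 with no floor, 9 at the 25th and 3 at the 75th percentile, and those lower were 3 at the 75th. Between the lungs 2 were higher and 6 lower with no floor, and 4 were lower at the 25th percentile and with the pseudocount. The median of the co-receptor list against sham had the other sign under 4 settings, in the operated lung from -0.29 to -0.13 and in the other lung from -0.20 to -0.15. In the operated lung so had the medians of the NF-kB list under 4 settings, of the induced products under 3 and of the inflammasome list under 2, up to 0.27.

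No paired analysis was possible because each group is 1 array and the labels give no replicate numbers. One array a group also sets the limit on every value here. Signals near the floor are the least certain. Among them are GSDMD and TLR4 sets 3 and 4 in sham, and CASP8 in the operated and non-operated lungs.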
